A study of Mus musculus with 8 samples.

Results

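Colony-stimulating factors and their receptors were examined as a set of 8 genes: the ligands Csf1, Il34, Csf2 and Csf3, and the receptor chains Csf1r, Csf2ra, Csf2rb and Csf3r. They were chosen by symbol, and all 8 were found among the 52459 genes of the bulk table and among the 31053 genes of each single-cell matrix. FC1242, a pancreatic cancer cell line from the KPC mouse model, was given to C57BL/6 mice at 100000 cells per mouse, into the pancreas (primary tumors) or so that tumors grew in the liver (liver tumors). Harvest followed at 3 weeks in every group. Whole-tumor RNA was sequenced from 3 primary and 3 liver tumors (bulk libraries), and 1 droplet single-cell library per site was prepared from cells sorted for CD45, the surface protein of leukocytes. All tumors came from 1 cell line, and the labels tie no library to an animal, so p-values measure the spread between these libraries, which may be technical.

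Colony-stimulating factors are secreted proteins that keep myeloid cells alive and direct their growth. Csf1 (M-CSF) and Il34 are unrelated in sequence but share the tyrosine kinase receptor Csf1r, on which most macrophages depend. Csf2 (GM-CSF) binds a receptor built from the ligand-specific chain Csf2ra and the signaling chain Csf2rb, and Csf3 (G-CSF) binds Csf3r, the receptor that drives neutrophil production. In pancreatic tumors, cancer cells and fibroblasts are known sources of ligand, and macrophages, dendritic cells and neutrophils carry the receptors.

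In GRCm38 (mm10) Csf1 lies at chr3:107741048-107760469, Il34 at chr8:110741829-110805924, Csf2 at chr11:54247271-54249667 and Csf2ra at chr19:61223957-61228429, all on the minus strand. Csf3 lies at chr11:98701263-98703629 and Csf3r at chr4:126024550-126044440, both on the plus strand. The files give 1 value per gene, so isoforms are not separated.

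Mice have a near-copy of Csf2rb beside it, Csf2rb2, whose product pairs with the interleukin-3 receptor. Csf2rb lies at chr15:78325752-78353847 on the plus strand of GRCm38 (mm10), and Csf2rb2 at chr15:78282507-78305721 on the minus strand. Their coding sequences share an identical run of 242 bases, at bases 2083 to 2324 of the 2688 coding bases of Csf2rb. It is shown because bulk reads inside it cannot be assigned to either gene:
Csf2rb and Csf2rb2 shared run: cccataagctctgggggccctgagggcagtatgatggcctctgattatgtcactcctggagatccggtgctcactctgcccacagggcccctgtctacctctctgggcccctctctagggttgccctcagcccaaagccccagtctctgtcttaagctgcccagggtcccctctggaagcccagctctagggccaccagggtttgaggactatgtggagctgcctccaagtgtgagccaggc
Of the 4851 windows of 50 bases in the Csf2rb transcript, 892 (18.4%) also occur in Csf2rb2, and 892 of 4691 (19.0%) the other way round. How the bulk counting treated such reads is not given in the sources used here, so the bulk values of both genes are uncertain by that share. None of the last 500 windows was shared, so 3' single-cell UMIs separate them.

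The promoters of Csf1, Csf2ra and the copy Csf2rb2 are shown because their transcripts were higher in liver tumors and because the table used here holds them. They are the 250 bases before the RefSeq start (GRCm38.p6). Capitals mark the letters GAGGAA, or TTCCTC where the run lies on the other strand, the core of the sites bound by Spi1 (PU.1), a transcription factor of myeloid cells:
Csf2ra (chr19:61228419-61228668, minus strand): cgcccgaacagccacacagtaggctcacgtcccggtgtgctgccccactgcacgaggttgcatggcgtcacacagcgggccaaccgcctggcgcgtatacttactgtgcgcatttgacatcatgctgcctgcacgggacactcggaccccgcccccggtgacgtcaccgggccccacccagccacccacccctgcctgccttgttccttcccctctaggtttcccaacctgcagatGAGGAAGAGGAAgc
Csf2rb2 (chr15:78305722-78305971, minus strand): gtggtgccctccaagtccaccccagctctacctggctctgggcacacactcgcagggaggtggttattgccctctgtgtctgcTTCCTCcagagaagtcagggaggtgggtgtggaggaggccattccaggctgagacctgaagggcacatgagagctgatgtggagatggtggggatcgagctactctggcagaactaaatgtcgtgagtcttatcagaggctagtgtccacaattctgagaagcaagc
Csf1 (chr3:107760470-107760719, minus strand): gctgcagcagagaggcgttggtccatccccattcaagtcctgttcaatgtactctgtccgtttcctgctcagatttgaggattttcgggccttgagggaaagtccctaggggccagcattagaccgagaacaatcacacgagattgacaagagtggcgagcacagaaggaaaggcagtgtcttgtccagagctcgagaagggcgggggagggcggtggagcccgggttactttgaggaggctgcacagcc
Csf2ra held 2 copies close to its start, Csf2rb2 held 1 on the other strand, and Csf1 held none. The GENCODE start of Csf2ra lies 11 bases upstream of the RefSeq start. Of 32851 promoters of the same length, 7639 (23.2%) held the core on either strand, so its presence is common. Of the 8 members, 4 were in the table (Csf1, Csf2, Csf2ra and Csf3r).

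The bulk libraries held 27481390 to 36743247 reads, and 16487 genes were tested. In liver tumors 2755 genes were higher (16.7% of those tested) and 1032 lower (6.26%), a split of 72.8% higher among all calls that became 60.7% with upper-quartile scaling. Liver tumors also carried liver tissue: the 8 hepatocyte markers, all higher, summed to 56551 to 105400 CPM (reads relative to the library's TMM-scaled total) against 70.5 to 536 in primary tumors. The epithelial tumor markers summed to 2483 to 2704 CPM in liver and 3481 to 9194 CPM in primary tumors. Of the single-cell barcodes, 2272 primary and 7617 liver ones were called as cells, with medians of 12031.5 and 6750 UMIs, and 7 barcodes were shared between the libraries. Of the barcodes with at least 1500 UMIs, 69.5% (primary) and 39.1% (liver) were above the mitochondrial limit and were left out.

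In the bulk tumors, Csf1 and 3 of the 4 receptor chains were higher in the liver, and no member was called lower. Csf1r was 3.04-fold higher, Csf2rb 2.52-fold, Csf1 2.28-fold and Csf2ra 2.27-fold (edgeR's quasi-likelihood test, Benjamini-Hochberg adjustment). That is 4 of the 7 members tested, beside 16.7% of all tested genes called higher and 6.26% called lower. In all 4 every liver library lay above every primary library, an order found in 23.8% of tested genes. Csf2, Il34 and Csf3r were not called, and Csf3 had too few reads to be tested.

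**Figure D1:**
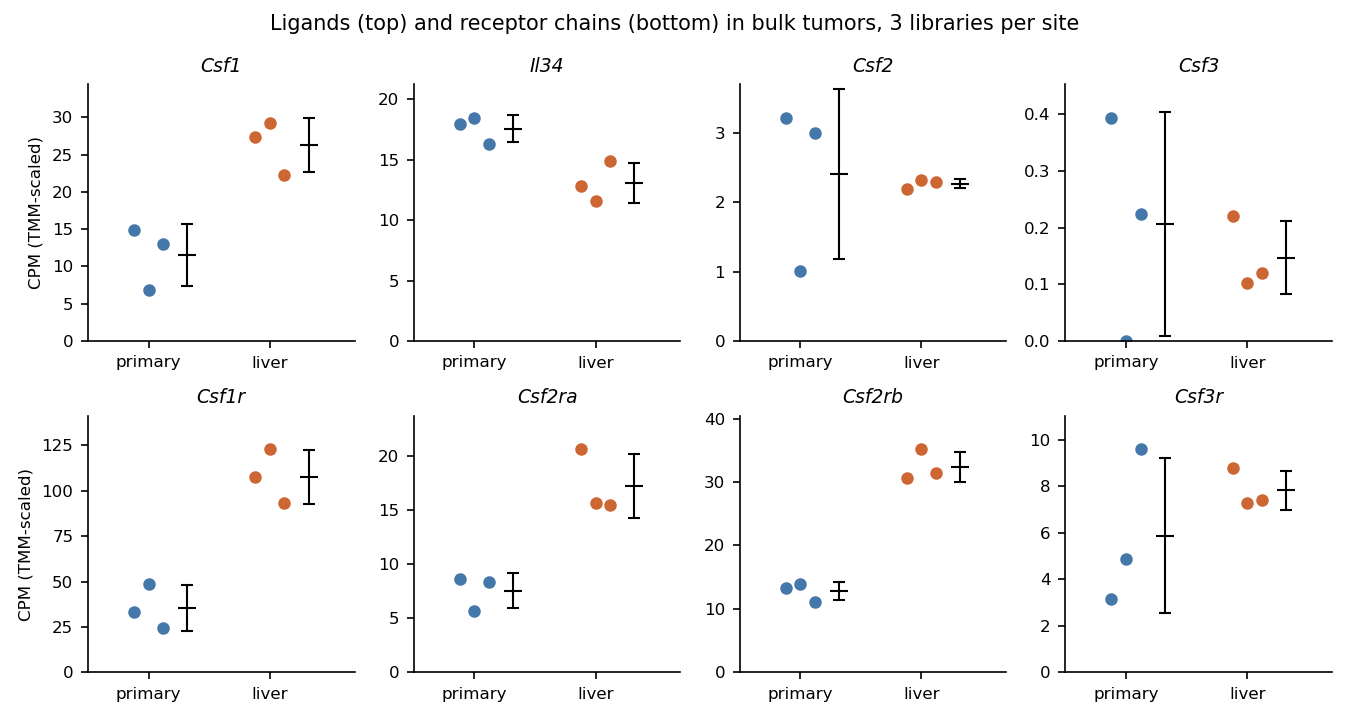
Level of each member in CPM (TMM-scaled) in every bulk library, ligands above and receptor chains below. Points are libraries and bars are the mean and SD of 3, with each vertical axis starting at 0; the liver points of Csf1, Csf1r, Csf2ra and Csf2rb all lie above the primary points, and those of Il34 all lie below.

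Csf1, the main growth factor of macrophages, was at 14.9, 6.79 and 13.0 CPM in the primary tumors and at 27.4, 29.2 and 22.3 CPM in the liver tumors. The groups did not overlap, and the log2 difference was 1.19 (SE 0.30, edgeR adjusted p = 0.0260). Each liver library carried weight in this call: the edgeR adjusted p was above 0.05 when any of the 3 was left out, with log2 differences of 1.13, 1.11 and 1.27 without liver replicate 1, 2 and 3.

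Il34, the second ligand of the same receptor, ran the other way. It was at 18.0, 18.5 and 16.3 CPM in the primary tumors and at 12.8, 11.6 and 14.9 CPM in the liver tumors. All 3 liver libraries lay below all 3 primary libraries, an order found in 20.2% of tested genes, but the log2 difference of -0.43 (SE 0.20, edgeR adjusted p = 0.165) did not pass the test. Of the 9 epithelial tumor markers 1 was called lower and none higher. Their sums, given above and led by Krt18, were lower in every liver library, and their part in the Il34 values was not tested. A pair of noncoding genes lie antisense to Il34, and the strandedness of the bulk counting is not given in the sources used here. The more abundant, Gm15895, had 17 to 67 reads per library beside 291 to 730 for Il34.

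Measured per length, the sum of both Csf1r ligands was close to level while its makeup differed. Il34 exceeded Csf1 by 3.26, 7.31 and 3.40 times in the authors' FPKM (read levels scaled to depth and gene length) in the primary tumors. The ratio was 1.26, 1.07 and 1.80 in the liver tumors. The groups did not overlap (exact two-sided permutation p = 0.1, the smallest that 3 against 3 allows). The summed FPKM of both ligands was 11.1 ± 0.758 in primary and 11.7 ± 0.0473 in liver tumors (SD, n = 3 each; exact two-sided permutation p = 0.4). Over that sum, Csf1r stood at 0.653 ± 0.248 in primary and 1.89 ± 0.293 in liver tumors (SD, n = 3 each; exact two-sided permutation p = 0.1). These 3 measures were chosen after the values had been seen.

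**Figure D2:**
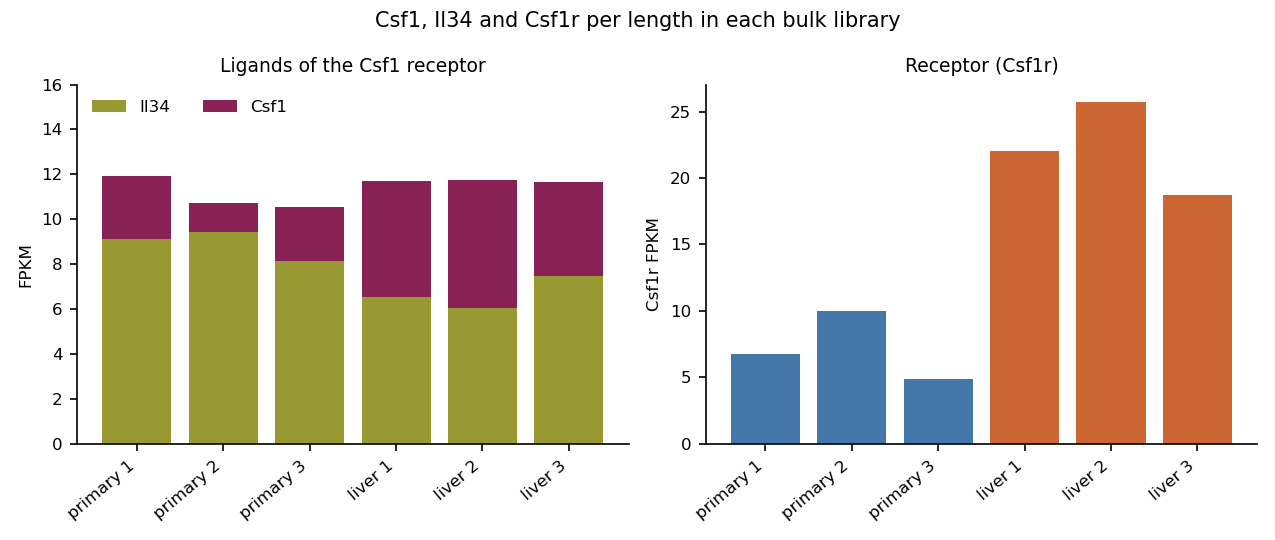
FPKM of Il34 and Csf1, stacked, and of Csf1r in each of the 6 bulk libraries. The stacked ligand bars reach 10.6 to 11.9 in every library, while the Csf1r bars reach 4.85 to 9.99 in primary and 18.7 to 25.8 in liver tumors.

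Csf2, which T cells, epithelial cells and fibroblasts can make, was low at both sites, with 3.22, 1.005 and 3.01 CPM in primary and 2.20, 2.32 and 2.29 CPM in liver tumors. The primary libraries lay on both sides of the liver libraries. The log2 difference was -0.09 (SE 0.46, edgeR adjusted p = 0.907), and its sign depended on the processing. Csf3 had 16, 0 and 9 reads in the primary and 5, 3 and 4 reads in the liver libraries, too few for a comparison.

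Csf1r was the most abundant member in liver tumors and the one that differed most. It was at 33.2, 48.8 and 24.3 CPM in the primary and at 107.7, 122.6 and 92.9 CPM in the liver tumors, with a gap between the groups wider than the spread within either. The log2 difference was 1.61 (SE 0.27, edgeR adjusted p = 0.0040). Csf1r overlaps Hmgxb3 on the opposite strand, whose log2 difference was -0.13 (edgeR adjusted p = 0.670). In whole tumors, more receptor-bearing cells and more receptor RNA per cell cannot be told apart.

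Csf2rb, the chain that passes on the signals of GM-CSF, interleukin-3 and interleukin-5, was at 13.4, 14.0 and 11.2 CPM in the primary and at 30.6, 35.1 and 31.4 CPM in the liver tumors. The log2 difference was 1.34 (SE 0.19, edgeR adjusted p = 0.0015), and the libraries within a site lay close together. Its copy Csf2rb2 rose by 1.003 (SE 0.22, edgeR adjusted p = 0.0140). The read ratio of Csf2rb to Csf2rb2 was 1.82, 2.06 and 1.77 in primary and 2.50, 2.34 and 2.30 in liver tumors (exact two-sided permutation p = 0.1, the smallest allowed; chosen after the values had been seen).

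Csf2ra, the chain specific to GM-CSF, was at 8.63, 5.68 and 8.41 CPM in the primary and at 20.6, 15.6 and 15.5 CPM in the liver tumors. The groups did not overlap, and the log2 difference was 1.19 (SE 0.26, edgeR adjusted p = 0.0130). Without liver replicate 1, the highest library, it was 1.01 and no longer passed (edgeR adjusted p = 0.0677).

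Csf3r did not separate the sites. It was at 3.17, 4.88 and 9.57 CPM in the primary and at 8.80, 7.27 and 7.38 CPM in the liver tumors, so that the highest library was a primary tumor. The log2 difference was 0.41 (SE 0.41, edgeR adjusted p = 0.503). The 10 neutrophil markers were as mixed, with 2 higher, 1 lower and summed levels of 56.9 to 107 CPM in primary and 64.5 to 95.8 CPM in liver tumors.

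Ranked by FPKM, Il34 led in primary tumors (8.91 ± 0.671, SD, n = 3), followed by Csf1r (7.20 ± 2.60), whose range overlapped that of Il34. Csf2ra, Csf2, Csf2rb, Csf1 and Csf3r came next, each overlapping its neighbor in the order, and Csf3 was last at 0.143 ± 0.140. In liver tumors Csf1r led (22.2 ± 3.51, SD, n = 3), clear of Csf2ra (9.36 ± 1.57). Csf2rb (6.83 ± 0.636) and Il34 (6.69 ± 0.729) overlapped each other and lay above Csf1 (5.01 ± 0.776), Csf2 (2.85 ± 0.118), Csf3r (2.18 ± 0.229) and Csf3.

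Csf1r, Csf2ra and Csf2rb were higher together with markers of several cell types, among them macrophages and dendritic cells. Of the 16 monocyte and macrophage markers, 9 were higher and none lower in liver tumors, and their summed level was 3416 to 4734 CPM in primary and 11003 to 18113 CPM in liver tumors. None of the 16 was at 0 in all libraries. Without Apoe and Fn1, which hepatocytes also express, the sum was 567 to 931 CPM in primary and 1276 to 1436 CPM in liver tumors, a smaller difference. All 7 Kupffer cell markers, of the resident macrophages of the liver, were higher as well, at 305 to 555 CPM against 2.14 to 13.2 CPM. Of the 10 dendritic cell markers 8 were higher, and of the 8 fibroblast markers 6 were higher, with sums of 1505 to 1931 CPM in liver and 398 to 1047 CPM in primary tumors. B cell markers (7 of 8) and endothelial markers (4 of 7) were higher too, and none of the 10 T cell markers was called. Of all tested genes 16.7% were called higher and 6.26% lower.

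Per 1000 CPM of the macrophage markers, Csf1r stood at 9.36 ± 4.26 in primary and 7.31 ± 1.27 in liver tumors (SD, n = 3 each), with overlapping groups (exact two-sided permutation p = 0.7). The direction of this ratio was set by the markers counted. Apoe and Fn1 made up most of the sum. Without them, a choice made after seeing the data, Csf1r stood at 43.8 ± 8.08 in primary and 79.6 ± 6.35 in liver tumors, with no overlap (exact two-sided permutation p = 0.1, the smallest allowed). Csf2rb changed direction in the same way, with log2 differences of -0.60 over all 16 markers and 0.56 over the remaining 14 (exact two-sided permutation p = 0.2 and 0.1). Csf2ra went from -0.74 to 0.42 (exact two-sided permutation p = 0.1 and 0.4).

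Csf3r per 1000 CPM of the neutrophil markers was 71.5 ± 36.4 in primary and 96.9 ± 15.7 in liver tumors (SD, n = 3 each; exact two-sided permutation p = 0.3).

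The other genes of these pathways were taken from lists chosen with earlier results of these data known. Among ligands and receptors related to the set, 2 of 8 tested genes were higher and none lower, beside 16.7% and 6.26% of all tested genes (median log2 difference 0.24, against -0.07 over all tested genes). They were Csf2rb2 and Flt3, the receptor that dendritic cells need (2.19, SE 0.39, edgeR adjusted p = 0.0054). Il3 had no read in any library. Il3ra, the interleukin-3 chain that pairs with Csf2rb, had a log2 difference of -0.58 (edgeR adjusted p = 0.179), and Ptprz1, described as another receptor of Il34, was too low to be tested.

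Among genes of receptor signaling, 8 of 23 were higher and 1 lower, with a median of 0.42, beside 16.7% and 6.26% of all tested genes. The higher genes included Fgr (1.53) and Lyn (1.05), Src-family kinases of myeloid cells, and Pik3cd (1.25), the leukocyte form of phosphoinositide 3-kinase. Tyrobp, an adaptor of myeloid receptors, was higher by 1.13, and Src itself was lower (-1.02, edgeR adjusted p = 0.0211). The shared transducers Jak2, Stat5a and Stat5b were not called, with log2 differences of -0.37, -0.34 and 0.54.

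Of 14 transcription factors of myeloid cells, 8 were higher and 1 lower, beside 16.7% and 6.26% of all tested genes, and their median of 1.34 was the highest of the 5 lists. Cebpe, a factor of late granulocyte development, differed by 5.41 (SE 0.44, edgeR adjusted p = 6.4e-05), Cebpa by 2.80, Irf5 by 1.81 and Irf8 by 1.36. Cebpa is also a factor of hepatocytes. Cebpe had 4 to 5 reads in the primary and 124 to 185 in the liver libraries. Neither Csf3r nor the sum of the neutrophil markers separated the sites, as given above. Which cells the Cebpe reads came from was not tested. Spi1, whose core letters are marked in the promoters above, was higher by 1.31 (SE 0.23, edgeR adjusted p = 0.0052), and Runx1 was lower (-0.89, edgeR adjusted p = 0.0425).

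Calls among the inducers and targets of these cytokines were few. Of 10 tested inducers and of 13 tested targets, 1 each was higher and 1 each lower, beside 16.7% and 6.26% of all tested genes. Of 10 tested inducers, Il17ra, a receptor chain for interleukin-17, was higher (2.88, SE 0.24, edgeR adjusted p = 8.8e-05) and Relb was lower (-0.74, edgeR adjusted p = 0.0318). Il1b, a classic inducer of Csf2 and Csf3, had a log2 difference of 0.87 (edgeR adjusted p = 0.177), and Il17a had no read. Of 13 tested target genes, the chemokine gene Ccl17 was higher (1.43, edgeR adjusted p = 0.0410) and Fos lower (-2.35, edgeR adjusted p = 0.0287), with a median of -0.27.

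The single-cell libraries showed which of the sorted cells held each transcript. With 1 library per site there is no test between sites, and intervals cover counting error only. CPM here means a gene's UMIs relative to all UMIs of a cell class. The cells fell into 28 clusters, made without the 8 members and Csf2rb2. The largest named classes were monocyte- or macrophage-like (1502 primary and 3114 liver cells), epithelial tumor cell-like (281 and 2751), neutrophil-like (221 and 521), T cell-like (129 and 163) and dendritic cell-like (63 and 121). Cluster 2, of 40 primary and 771 liver cells, was left unnamed for its low depth. Its best marker list was the epithelial one, with Krt18 at 2133 and 2796 CPM. The epithelial values given here leave cluster 2 out. The epithelial cells should not pass a CD45 sort: Ptprc, which encodes CD45, was at 8.80 and 14.8 CPM in them against 495 and 279 CPM in the macrophage-like cells. Values from these cells describe those that came through the sort. Shares of a library's UMIs likewise describe the sorted cells and not the whole tumor. Only 14 primary and 16 liver cells were fibroblast-like, and no cluster was named endothelial, though bulk tumors held markers of both.

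**Figure D3:**
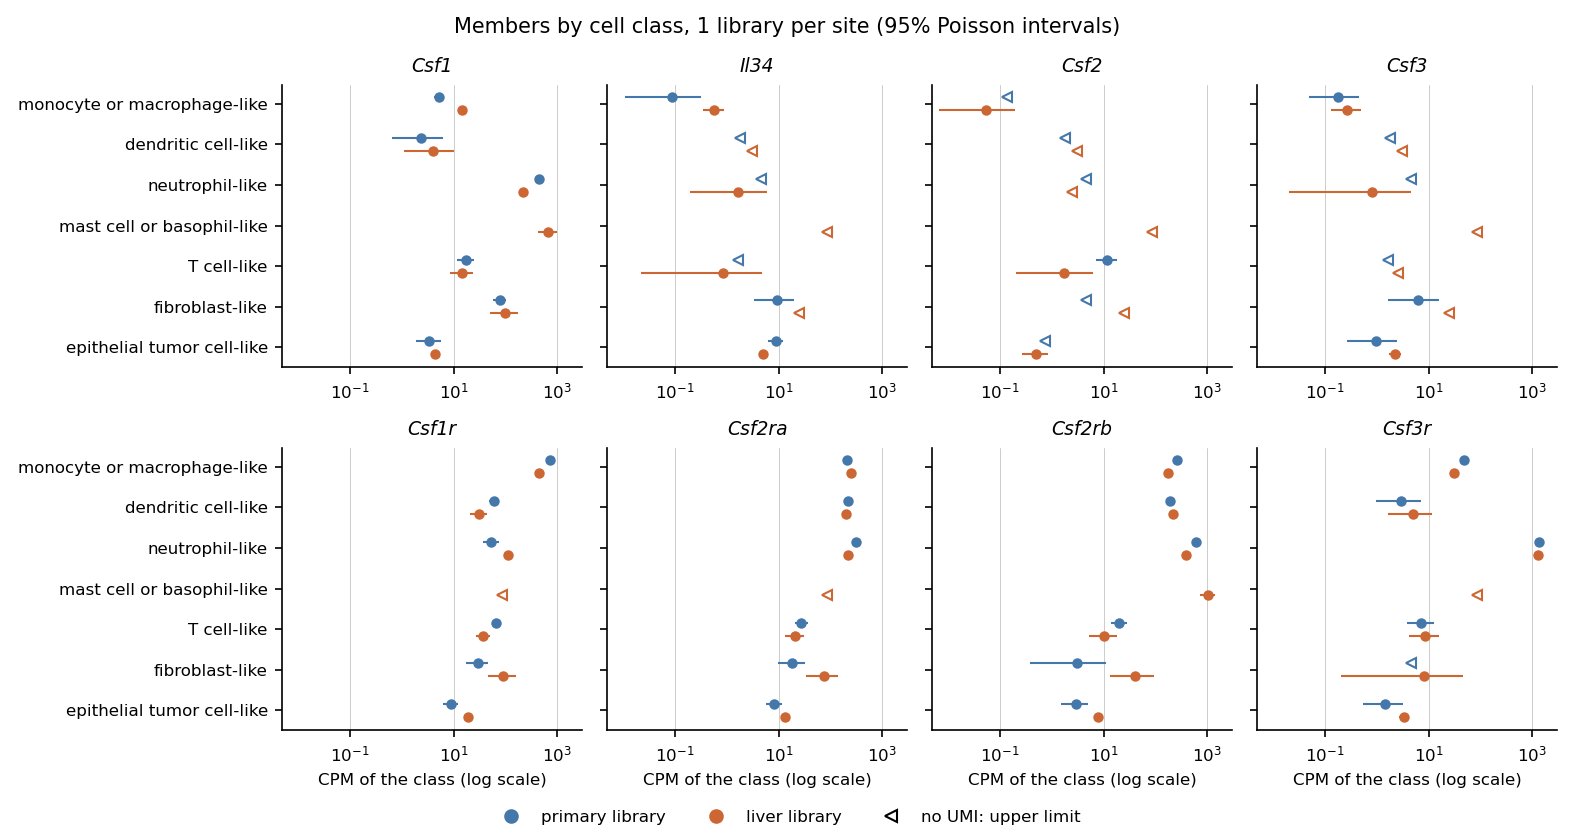
CPM of each member in 7 cell classes of the primary and liver libraries, on log axes. Points carry 95% Poisson intervals, open triangles give the upper limit where no UMI was found, and classes of under 10 cells in a library are left out. Csf1 stands highest in the neutrophil- and basophil-like cells, Csf1r in the macrophage-like cells and Csf3r in the neutrophil-like cells.

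Csf1 was highest not in tumor cells but in the neutrophil-like cells, among classes of at least 50 cells. It was at 448 CPM (95% interval 398 to 502) in those of the primary and at 218 CPM (193 to 246) in those of the liver library. The class differed in makeup, with cluster 20, led by Cxcl2 and G0s2, holding 66 of the 221 primary and 12 of the 521 liver cells. In cluster 6, which held the others, Csf1 was at 414 CPM (358 to 475) and 203 CPM (178 to 230). After thinning each cell to 1000 UMIs, 25.8% (primary) and 15.2% (liver) of neutrophil-like cells held a Csf1 UMI, and 40.7% and 23.6% before thinning. The liver neutrophil-like cells also held more epithelial RNA, with Krt18 (a keratin) at 972 CPM against 93.9 CPM, and its part in the lower Csf1 level was not tested. Among the sorted cells, the neutrophil-like ones held 57.5% of all Csf1 UMIs in the primary library and 27.2% in the liver library.

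The 14 and 16 fibroblast-like cells that passed the sort had Csf1 at 78.7 CPM (58.6 to 104) in the primary and 98.7 CPM (51.0 to 172) in the liver library, where 9 of the 12 UMIs lay in 1 cell. These groups were unlike, with medians of 45517 (primary) and 2285.5 (liver) UMIs per cell. Col1a1 was at 2830 and 749 CPM and Krt18 at 517 and 2345 CPM in them, so their Csf1 levels are not comparable. Epithelial tumor cell-like cells had 3.42 CPM (1.87 to 5.74) and 4.45 CPM (3.67 to 5.34). T cell-like cells had 17.4 CPM (11.8 to 24.7) and 14.7 CPM (8.57 to 23.5). Free RNA, read from barcodes of over 100 and up to 500 UMIs, held Csf1 at 7.46 and 10.1 CPM. That band held 59606 of the 102497 primary barcodes with at least 10 UMIs, but only 3251 of the 107639 liver ones. In the liver library Krt18 was at 2474 CPM in it and at 1135 CPM in barcodes of 10 to 100 UMIs. All liver free RNA levels from this band therefore rest on few of its barcodes. What part free RNA had in the epithelial level was not tested.

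In macrophage-like cells, the cells that answer to Csf1, its own transcript was at 5.14 CPM (4.24 to 6.17) in the primary and 14.3 CPM (13.1 to 15.5) in the liver library. Free RNA held 7.46 CPM (6.19 to 8.92) and 10.1 CPM (4.82 to 18.5). Krt18 was at 30.9 and 227 CPM in the macrophage-like cells against 355 and 2474 CPM in that free RNA. Only part of a cell's UMIs is free RNA, so these levels do not give its share of the Csf1, which was not tested. The macrophage-like cells held 22.5% of the primary and 53.9% of the liver Csf1 UMIs. Different clusters made up the class: clusters 4 and 8 held 49.1% and 25.3% of it in the primary library, and clusters 0 and 3 held 34.1% and 24.7% in the liver library. Cluster 14, with Arg1 and Saa3 among its leading genes, had 157 primary and 123 liver cells. In it Csf1 was at 4.43 CPM in the primary and 44.6 CPM in the liver library, the highest level of any macrophage-like cluster of at least 50 cells. Cluster 4, led by Rgs1, Il1r2 and Thbs1 and nearly all primary, had 0.939 CPM. Clusters 8 and 11 did not show the difference, with 10.3 and 6.28 CPM in cluster 8 and 5.95 and 7.58 CPM in cluster 11 (primary and liver).

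**Figure D4:**
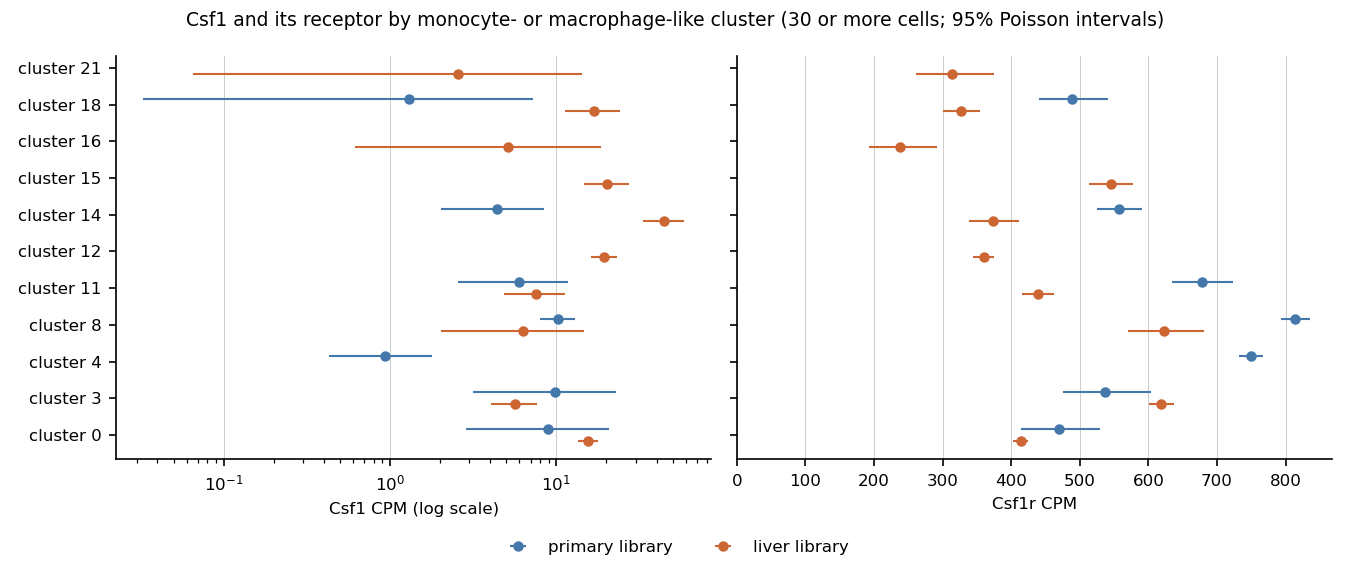
CPM of Csf1 (log axis) and of Csf1r (linear axis from 0) in each monocyte- or macrophage-like cluster with at least 30 cells of a library. Bars are 95% Poisson intervals; Csf1 spans 0.939 to 44.6 CPM, with the highest point in the liver cells of cluster 14, and Csf1r spans 238 to 814 CPM, with primary points above liver points in clusters 0, 8, 11, 14 and 18 and below in cluster 3.

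Most Il34 UMIs lay in the epithelial tumor cell-like cells. They held 80.0% of its UMIs in the primary and 79.9% in the liver library, at 8.80 CPM (6.16 to 12.2, from 36 UMIs) and 4.95 CPM (4.13 to 5.90, from 127 UMIs). The level was lower in the liver library. The class was made of different clusters at each site: cluster 5 held 2 primary and 724 liver cells, and cluster 10 held 60 of the 281 primary and 361 of the 2751 liver cells. Free RNA held 2.05 and 1.01 CPM. Within the class, Il34 was at 10.2 (primary) and 8.08 CPM (liver) in cluster 10, which expressed Krt19 and Cldn18, and at 1.42 CPM in the liver cells of cluster 1. Macrophage-like cells had 0.0901 and 0.572 CPM, and the neutrophil-like cells of the primary library had no UMI, which allows up to 4.62 CPM. The 14 primary fibroblast-like cells had 9.26 CPM (3.40 to 20.2, from 6 UMIs in 4 cells), with 13.3% of the library's Il34 UMIs. The 16 of the liver library had none, which allows up to 24.7 CPM.

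Csf2 came from few cells. In the primary library all 21 UMIs lay in 4 of the 129 T cell-like cells, and 16 of them in 1 cell. All 4 cells held a Cd8a UMI, as did 114 of the 129, so the cells were of the commoner kind. In the liver library 2 of 163 T cell-like cells held 1 UMI each, and 13 of the 17 UMIs lay in 6 of the 2751 epithelial tumor cell-like cells, 8 of them in 1 cell. With a minimum of 3000 UMIs per cell 4 UMIs remained in this class, at 0.161 CPM. The 281 epithelial cells of the primary library had none, which allows up to 0.733 CPM, beside 0.507 CPM (0.270 to 0.867) in the liver library. The difference was not detectable at this depth.

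Csf3 was also epithelial in the liver library, where 59 of its UMIs, 84.3% of the total, lay in 39 epithelial tumor cell-like cells at 2.30 CPM (1.75 to 2.97). Cluster 10, highest for Il34, held 46 of these. The primary epithelial cells had 0.978 CPM (0.266 to 2.50), from 4 UMIs, with an interval that overlaps. The other primary UMIs were 4 in fibroblast-like and 4 in macrophage-like cells. That was 6.18 CPM (1.68 to 15.8) in the 14 fibroblast-like cells, of which 2 held a UMI, and 0.180 CPM (0.0491 to 0.462) in the macrophage-like cells. Free RNA held 0.871 CPM (0.476 to 1.46) in the primary and 3.02 CPM (0.622 to 8.82) in the liver library, from 14 and 3 UMIs. Its part in the levels of these classes was not tested.

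Csf1r belonged to the macrophage-like cells, which held 97.9% of its UMIs in the primary and 94.9% in the liver library. Within them the direction was opposite to that of the bulk tumors: 722 CPM (710 to 733) in the primary and 452 CPM (445 to 458) in the liver library. After thinning, 50.1% and 37.6% of these cells held a UMI (96.2% and 92.9% before), beside 0.712% and 3.24% of the epithelial cells. In each of the 3 clusters with at least 50 cells in both libraries the primary level was higher, at 814 against 623 CPM in cluster 8, 678 against 438 CPM in cluster 11 and 558 against 374 CPM in cluster 14. The same order held with fewer primary cells in cluster 0 (469 against 414 CPM) and cluster 18 (489 against 327 CPM). In cluster 3, with 33 primary cells, the order was the other way, at 537 (475 to 604) against 619 CPM (601 to 637). Epithelial RNA differed between the libraries too, with Krt18 at 30.9 CPM in primary and 227 CPM in liver macrophage-like cells, and its part was not tested.

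Low levels of Csf1r in other classes were set against C1qa, a complement gene of macrophages that is also in free RNA. Macrophage-like cells had 15.8 (primary) and 11.4 (liver) Csf1r UMIs per 100 C1qa UMIs. Free RNA in barcodes of 10 to 100 UMIs had 17.8 (14.4 to 21.7) in the primary and 13.8 (11.3 to 16.8) in the liver library. T cell-like cells had 15.7 (12.8 to 19.1) and 14.0 (9.90 to 19.3). Epithelial cells had 28.1 (18.9 to 41.0, from 36 Csf1r UMIs) in the primary and 14.1 (12.8 to 15.5) in the liver library. The intervals of both classes overlapped that of free RNA in their own library. Macrophage-like cells and free RNA had like ratios, so a match cannot tell free RNA from doublets with macrophages, and neither was tested. Of the 129 primary T cell-like cells 25 held a Csf1r UMI, with 17 UMIs in 1 cell. Their Csf1r level fell when likely doublets were removed, as given below. Neutrophil-like cells were higher, with 49.3 (31.9 to 74.9) and 25.5 (20.9 to 30.8). Their Csf1r level was 53.9 CPM (37.5 to 74.9) and 112 CPM (94.0 to 133).

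Both chains of the GM-CSF receptor were spread over 3 myeloid classes. Csf2ra was at 211 and 252 CPM in macrophage-like, 219 and 203 CPM in dendritic cell-like and 309 and 216 CPM in neutrophil-like cells (primary and liver). Csf2rb was at 258 and 176 CPM in macrophage-like, 194 and 221 CPM in dendritic cell-like and 600 and 382 CPM in neutrophil-like cells. Neutrophil-like cells thus had the highest Csf2rb of the 3 classes in both libraries, while for Csf2ra they were highest only in the primary library. T cell-like cells had 20.2 and 10.4 CPM of Csf2rb, and epithelial cells 2.93 and 7.76 CPM. Free RNA of barcodes with over 100 and up to 500 UMIs held 89.2 and 59.4 CPM, above both classes. Csf2ra was at 8.31 and 13.6 CPM in epithelial cells, beside 91.2 and 59.4 CPM in that free RNA. Per 100 C1qa UMIs, primary epithelial cells had 26.6 Csf2ra UMIs (17.6 to 39.0), above the 9.83 (9.31 to 10.4) of that free RNA. Those of the liver library had 10.2 (9.08 to 11.4) beside 7.77 (5.86 to 10.1), with overlapping intervals. The part of free RNA in these levels was not tested.

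Within the dendritic cell-like class, cluster 17, of Xcr1- and Clec9a-expressing cells, had Csf2ra at 227 and 226 CPM. In the 40 liver cells of cluster 23, which expressed Ccr7, Csf2ra was at 141 CPM and Csf2rb at 331 CPM.

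Csf3r marked the neutrophil-like cells, at 1347 CPM (1259 to 1439) in the primary and 1280 CPM (1217 to 1345) in the liver library. After thinning, 62.0% and 66.8% of them held a UMI (79.6% and 88.5% before), beside 0.712% and 0.654% of epithelial cells. With a minimum of 3000 UMIs, which left 72 liver neutrophil-like cells in place of 521, the liver level was 462 CPM. Macrophage-like cells had 49.2 CPM (46.3 to 52.2) and 31.1 CPM (29.3 to 32.9), a level of the order of free RNA (39.9 and 30.2 CPM). Per 100 UMIs of S100a8, a neutrophil gene, there were 207 and 36.0 Csf3r UMIs in macrophage-like cells, 5.49 and 6.54 in neutrophil-like cells and 41.7 (38.0 to 45.8) and 23.6 (15.3 to 35.4) in that free RNA. What part free RNA had in the macrophage level was not tested. Macrophage-like cells were many, so they held 54.7% and 40.5% of all Csf3r UMIs.

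The genes whose levels were most like those of each member were found over the 11 summed profiles of classes with at least 50 cells, as a description, since profiles of 1 library share its depth and free RNA. For Csf1 they were E230032D23Rik, Rdh12 and Il1rap (Pearson r from 0.982 to 0.984), and for Il34 they included Clic6 (0.994) and Epn2 (0.992). Csf1r was most like C1qc, Clec4a2 and Tlr1 (0.973 to 0.976). The genes most like Csf2ra included Pik3r6 (0.987) and Plcg2 (0.977), and Csf2rb was most like Ogfrl1, Ttyh3 and Fes (0.983 to 0.985). Csf3r was most like Mmp9 (0.996), Gm49368 and P2ry13. Csf2 and Csf3, with 38 and 82 UMIs, were below the minimum of 100.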

How the data were processed

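Bulk RNA-seq (3 libraries per site) and 10x single-cell data (1 library per site) were used. The authors deposited raw read counts and FPKM per gene symbol for the bulk libraries and UMI counts for all barcodes. Per the submitters' processing notes, bcl2fastq, Cell Ranger and mm10 were used; the bulk aligner is not given in the sources used here. Bulk counts were tested with edgeR 4.0.16 (TMM, filterByExpr, robust quasi-likelihood fit, Benjamini-Hochberg adjustment over all genes, threshold 0.05), and ratios with exact permutation tests. FPKM served for levels between genes.

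The members, the pathway lists and the markers were chosen with earlier results of these data known. Named beyond the members were up to 4 called genes per list by p-value, a few fixed genes, and the 3 genes most like each member, by log2(CPM + 10). Further genes (Lyn, Src, Jak2, Stat5a, Stat5b, Spi1, Runx1, Il1b, Il17a) were named after their values were seen. A few genes that the rule selects are not reported here.

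Cells had at least 1500 UMIs, 200 genes and at most 10% mitochondrial UMIs. Scrublet removed 5 of 2277 primary and 1 of 7618 liver barcodes, a number too low to have worked in the liver library. Both were far below the 6% rate it was set to expect, so doublets can remain in either library. Clustering (scanpy, Leiden resolution 1, 2000 variable genes, 30 components) left out the members. A cluster was named from at least 3 markers over 2-fold above the other clusters. Intervals are exact 95% Poisson or Clopper-Pearson, a count of 0 was read as allowing 3, and ratios of UMIs carry Clopper-Pearson intervals. Replicate numbers were not used as pairs in the main test. Deviations of same-numbered libraries correlated at -0.196, 0.279 and 0.103, and those of the others at -0.412 to 0.247. With 3 libraries per site these values cannot exclude a pairing.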

Additional observations from a re-analysis of the deposited data

How the results depend on the processing

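Every call on a member kept its side of the threshold under median-of-ratios and upper-quartile scaling, DESeq2, limma-voom, both filters on low counts (the one at 5 CPM removed Csf2) and both FPKM fits. The exception in direction was Csf2, never called, whose log2 difference of -0.09 became 0.049 with limma-voom, 0.035 on log2(FPKM + 1) and 0.093 on log2(FPKM + 0.1), and ranged from -0.45 to 0.17 without single libraries (0.17 without primary replicate 1, 0.09 without primary replicate 3). With a replicate block in the edgeR fit Csf2 was at 0.055, no member's call changed, and 2703 genes were higher and 873 lower. Without single libraries Csf1 ranged from 0.92 to 1.41 and Csf2ra from 1.01 to 1.29, with 2 to 4 members called; Csf1r (1.39 to 1.91) and Csf2rb (1.24 to 1.40) were called each time. Genes called ranged from 1810 to 3346 higher and from 134 to 1468 lower. Upper-quartile scaling gave 1689 genes lower and moved the median of all genes from -0.07 to -0.16. Among the lists, the receptor signaling genes called higher ranged from 4 to 11 without single libraries; DESeq2 called 4 target genes higher and 3 lower. The ratio of Csf1r to macrophage markers was 0.46 with a geometric mean of the markers, against -0.28. In single cells, of 88 class levels of the members, 10 moved beyond their interval with a mitochondrial limit of 20% and 16 when the highest-scoring 6% of each library were removed as doublets, an alternative chosen after seeing the data. The latter took Csf1r in primary T cell-like cells from 66.9 to 9.40 CPM. With a minimum of 3000 UMIs 18 of 80 moved; classes were then named anew, and 634 primary cells with Csf1r at 743 CPM took the name acinar, so that the macrophage-like cells held 59.6% of primary Csf1r UMIs. Csf3r in liver neutrophil-like cells was then at 462 CPM. Csf3 was too low for the bulk test, and Csf2 and Csf3 had 38 and 82 UMIs in all called cells.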

Other observations

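A small cluster of 12 liver cells and 1 primary cell expressed Mcpt8, Ms4a2, Gata2 and Hdc, genes of basophils, and stood out for this gene set. In the liver cells Csf2rb was at 1042 CPM (734 to 1436, from 37 UMIs) and was found in 11 of 12. Csf1 was at 676 CPM (433 to 1006, from 24 UMIs), found in 10 of 12, above the level in neutrophil-like cells of the same library. Csf2rb2, the copy that serves interleukin-3, was at 366 CPM (195 to 626, from 13 UMIs). Of the 7 mast cell and basophil markers tested in bulk, 4 were lower and none higher in liver tumors. The most abundant of the list was Tpsb2, a mast cell tryptase.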
